A study of Mus musculus with 6 samples.

Results

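Of the 81690 Ensembl transcripts measured in this experiment, 4 stand for genes of fatty acid synthesis under the transcription factor SREBP-1, and they were taken by a list of transcript identifiers. They are ENSMUST00000020846_at (Srebf1, which encodes SREBP-1), ENSMUST00000041331_at (Scd1) and ENSMUST00000026221_at (Scd2), which encode stearoyl-CoA desaturases, and ENSMUST00000055655_at (Fasn, fatty acid synthase). The gene of each identifier was taken as given with that choice, since 0 of the 81690 identifiers were found in the RefSeq gene table used here. Each gene is therefore represented by 1 transcript, and the isoforms of Srebf1 were not separated.

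The cells were resident peritoneal macrophages of female C57BL/6J mice aged 8 to 12 weeks, collected by lavage of the peritoneal cavity and kept for their adherence to plastic. In each of 3 replicate experiments, cells pooled from several mice were divided between a vehicle well (titled unstim) and a well with 25 µg/mL human LDL oxidized with CuSO4 (oxLDL), both for 24 h, and RNA of each well was hybridized to an Affymetrix Mouse Exon 1.0 ST array. This gave 3 vehicle and 3 oxLDL arrays, and arrays of the same number shared a pool of cells. The deposited values are per transcript on a log2 scale, so that a difference of 1 is a 2-fold change. The array medians lay between 8.64 and 8.80, and the tested transcripts were lower with oxLDL by a median of 0.10 (-0.10 on the log2 scale, and -0.059, -0.018 and -0.24 in replicates 1, 2 and 3). The tested transcripts are the brighter ones, and over all 81690 transcripts the median change was 0.0018. All RNA came from whole wells, so fewer cells of a type and less RNA per cell cannot be told apart. Markers of macrophages and of other peritoneal cells were not analysed here, because the identifiers were not paired with genes.

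SREBP-1 is made as a precursor in the membrane of the endoplasmic reticulum, and its released part enters the nucleus and binds sterol regulatory elements, usually beside sites for NF-Y or Sp1, to activate genes of fatty acid synthesis. Fasn builds palmitate from acetyl-CoA and malonyl-CoA, and the desaturases encoded by Scd1 and Scd2 place a double bond in palmitate and stearate to give palmitoleate and oleate, the fatty acids favored for cholesteryl esters and triglycerides. The sterol-sensing nuclear receptors LXR can raise the transcription of Srebf1 and of its targets, and the transcript of Srebf1 does not measure how much of the protein is released. Macrophages that take up oxLDL store cholesteryl esters and become foam cells, and the comparison of oxLDL with vehicle asks how these transcripts responded to that load.

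RefSeq promoter sequences (build GRCm38.p6, 250 bases before to 50 bases after each annotated start) were found for 2 of the 4 genes, Srebf1 and Fasn, and not for Scd1 and Scd2. They are shown because they are the stretches next to the start through which SREBP-1 and its partners could act. The motifs searched on both strands were the sterol regulatory element (SRE) written TCACNCCAC, the NF-Y box CCAAT, the E-box CACGTG, the GC box GGGCGG bound by Sp1, and the DR4 element of LXR with up to 2 mismatches. Capitals mark matches on either strand. The Fasn window is chr11:120824498-120824797, minus strand, and the windows of Srebf1 starts 2 and 3, counted in the direction of transcription and shown for holding more than 1 match, are chr11:60220578-60220877 and chr11:60210422-60210721, minus strand.
Fasn: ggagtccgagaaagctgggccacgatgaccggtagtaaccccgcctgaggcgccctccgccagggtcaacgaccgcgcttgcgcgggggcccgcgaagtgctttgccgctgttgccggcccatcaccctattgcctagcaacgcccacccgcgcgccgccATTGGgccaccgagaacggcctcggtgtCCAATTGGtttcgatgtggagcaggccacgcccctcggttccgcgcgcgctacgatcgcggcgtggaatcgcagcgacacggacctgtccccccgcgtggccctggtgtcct
Srebf1, start 2: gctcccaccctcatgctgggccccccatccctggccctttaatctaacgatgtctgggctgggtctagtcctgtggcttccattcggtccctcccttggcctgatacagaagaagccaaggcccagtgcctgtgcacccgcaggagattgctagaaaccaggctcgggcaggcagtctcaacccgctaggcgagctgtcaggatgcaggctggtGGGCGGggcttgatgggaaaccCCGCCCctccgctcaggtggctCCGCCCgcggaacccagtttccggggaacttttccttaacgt
Srebf1, start 3: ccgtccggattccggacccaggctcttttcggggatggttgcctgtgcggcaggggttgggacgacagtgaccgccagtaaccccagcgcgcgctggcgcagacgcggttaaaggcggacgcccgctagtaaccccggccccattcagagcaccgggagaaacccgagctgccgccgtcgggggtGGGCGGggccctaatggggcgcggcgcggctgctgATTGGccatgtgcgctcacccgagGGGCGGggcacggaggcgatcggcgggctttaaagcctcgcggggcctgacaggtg

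The Fasn window held 3 matches of the NF-Y box, which began at -90, -62 and -59 from the start, the last 2 overlapping on opposite strands. The window at Srebf1 start 2 held 3 GC boxes, at -36, -14 and 9, and that at start 3 held 2 GC boxes, at -65 and -6, and 1 NF-Y box at -30. The window of Srebf1 start 1, which is not shown, held 1 NF-Y box at -166. The SRE, the E-box and the DR4 element as written matched in 0 of these 4 windows, which says only that these letters are not in them. Of 32851 promoter windows of this length, 37.4% held the NF-Y box, 35.7% the GC box, 7.15% the E-box, 3.02% the DR4 element and 1.24% the SRE. These matches are a description of the sequence and not of binding.

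The 4 transcripts did not move together. With oxLDL, Scd1 rose 2.23-fold and Fasn fell to 0.646 of its vehicle value. The value of Scd2 was 1.38-fold higher in the means of its 3 arrays per group but did not pass the test without a term for the replicate number, and the fold-change of Srebf1 was 1.01. The test was limma across 40845 transcripts, those brighter on average than the median transcript of the table (8.74), a filter that all 4 passed, with Storey q-values over all of these transcripts. Storey's method scales by the estimated share of unchanged transcripts, 0.385 in this fit. A q-value can therefore lie below its p-value, and here it cannot exceed 0.385. A transcript was said to rise or fall at a q-value below 0.05, and was called differentially expressed at a fold-change of at least 2 as well. Of the 4, 1 was called higher (Scd1) and 0 were called lower, where 0.686% of tested transcripts were called higher and 2.45% lower. At the q-value alone, 1 member rose and 1 fell, where 10.7% of tested transcripts rose and 30.8% fell (4369 and 12587). The balance of rises and falls changed when the arrays were scaled again. Quantile normalization gave 9979 rises (24.4%) and 8794 falls (21.5%), and median centring 7543 (18.5%) and 11175 (27.4%), and under both 2 members rose (Scd1 and Scd2) and 1 fell. With both thresholds the counts were 280 higher and 1001 lower as deposited, and 383 and 748 after quantile normalization. The fit had no term for the replicate number, and with that number as a random block Scd2 passed the q-value too (q = 0.0237 from limma), so that 2 members rose and 1 fell. That fit also raised the numbers over all tested transcripts, to 5847 rises (14.3%) and 15663 falls (38.3%).

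**Figure D1:**
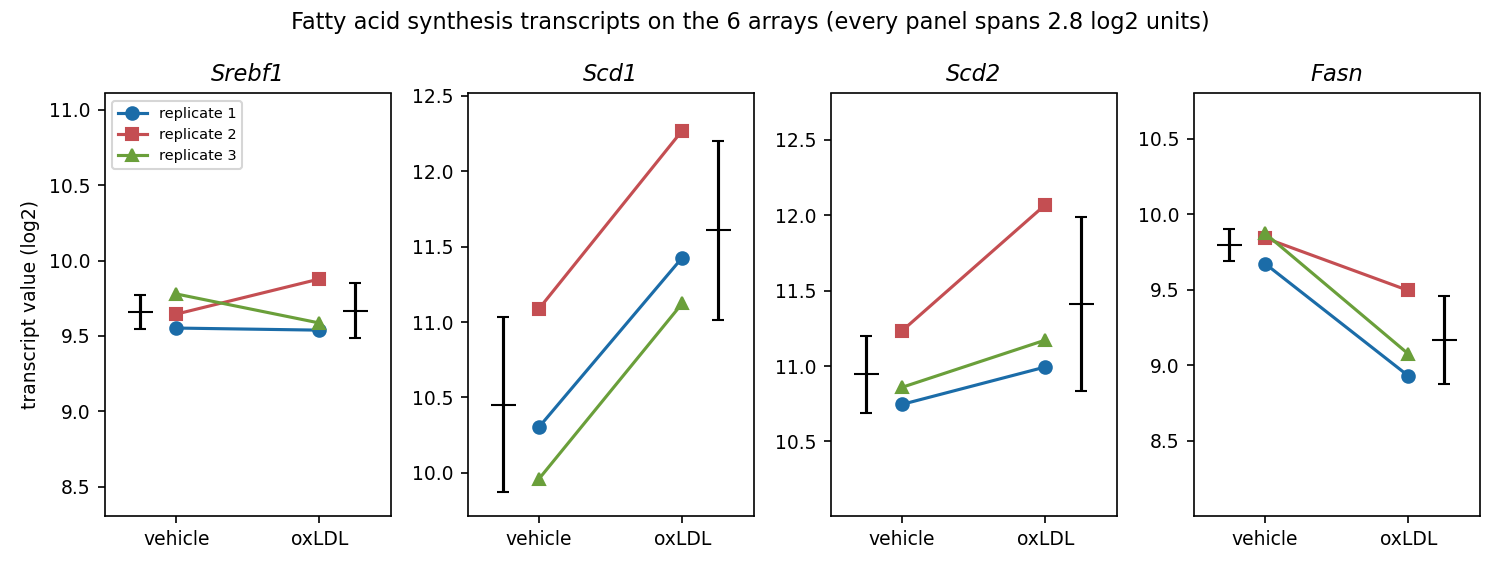
Value of each transcript (log2, y axis) on the vehicle and oxLDL arrays, with a line joining the arrays of the same replicate number, and group means with SD (n = 3) in black beside them. On these deposited values the 3 lines of Scd1 run almost parallel, at 3 different levels, those of Fasn all fall, and those of Srebf1 cross.

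Scd1 encodes the desaturase whose loss in mice lowers monounsaturated fat in many tissues. In replicates 1, 2 and 3 its log2 value was 10.31, 11.09 and 9.96 with vehicle, and 11.43, 12.27 and 11.12 with oxLDL. Every oxLDL array was above every vehicle array, although by little, since the lowest oxLDL value (replicate 3) lay next to the highest vehicle value (replicate 2). The groups were likewise apart with oxLDL above vehicle for 12.7% of tested transcripts. The mean was 10.45 ± 0.58 (SD, n = 3) for the vehicle arrays and 11.61 ± 0.59 (SD, n = 3) for the oxLDL arrays. The log2 fold-change was 1.16 (95% interval 0.46 to 1.85, standard error 0.31, q = 0.00774 from limma), higher than that of 99.5% of tested transcripts, and 194 had a larger rise.

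The levels of Scd1 differed between experiments by nearly as much as oxLDL changed them, while on the deposited values the change itself was nearly the same in each. Within replicates 1, 2 and 3 the log2 difference was 1.12, 1.18 and 1.16, or 2.18-, 2.27- and 2.24-fold. The values within a group spanned 1.13 (vehicle) and 1.15 (oxLDL), and the 3 differences spanned 0.058. The SD within groups was 0.59, larger than that of 99.7% of tested transcripts, whose median was 0.12. On the deposited values the SD of the 3 within-replicate differences was 0.030, at percentile 2.70 of the tested transcripts, whose median was 0.14. This closeness depended on the scaling. Relative to the median difference of the tested transcripts in each replicate, the 3 differences were 1.18, 1.20 and 1.40, which spanned 0.22, and their SD of 0.12 was at percentile 67.7, where the median was 0.090. After quantile normalization the SD was 0.13, at percentile 71.9. With the replicate number as a random block the interval narrowed to 0.65 to 1.66 (q = 0.000782 from limma). Without that block, the q-value passed 0.05 when vehicle replicate 3, the lowest array, was left out (log2 fold-change 0.91, q = 0.0571), and without oxLDL replicate 2, the highest array, the change fell below the 2-fold threshold (0.82, q = 0.00691).

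Scd2 encodes a related desaturase and lies near Scd1 on chromosome 19, with 1 protein-coding gene, Scd4, annotated between them. Whether probes of one desaturase also bound RNA of another was not tested. In replicates 1, 2 and 3 the log2 value of Scd2 was 10.75, 11.23 and 10.86 with vehicle, and 10.99, 12.07 and 11.17 with oxLDL. The groups overlapped, because vehicle replicate 2 was higher than oxLDL replicates 1 and 3. As for Scd1, replicate 2 had the highest value in both groups.

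The group means of Scd2 were 10.95 ± 0.26 (SD, n = 3) and 11.41 ± 0.58 (SD, n = 3), a log2 fold-change of 0.47 (95% interval -0.078 to 1.01, standard error 0.24, q = 0.0697 from limma). Within the replicates the value was higher on the oxLDL array in 3 of 3 pairs, by 0.25, 0.84 and 0.31, and 20.3% of tested transcripts were higher in all 3. With the replicate number as a random block the q-value of Scd2 was 0.0237 (limma, interval 0.053 to 0.88). Most of the mean came from replicate 2, and without oxLDL replicate 2 the log2 fold-change was 0.14 (q = 0.180, no block), while it was 0.67 (q = 0.0338) without oxLDL replicate 1 and 0.61 (q = 0.0443) without vehicle replicate 2. Without both arrays of replicate 2, an alternative chosen after the data were seen, it was 0.28.

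Fasn encodes the enzyme that makes palmitate, the saturated fatty acid that the desaturases and elongases then modify. The 3 vehicle arrays held log2 values of 9.67, 9.84 and 9.87 for Fasn in replicates 1, 2 and 3, and the oxLDL arrays held 8.93, 9.50 and 9.08. All 3 oxLDL arrays were below all 3 vehicle arrays, as for 32.5% of tested transcripts, and the vehicle values lay close together while oxLDL replicate 2 stood above the other oxLDL arrays.

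The group means of Fasn were 9.80 ± 0.11 (SD, n = 3) for vehicle and 9.17 ± 0.29 (SD, n = 3) for oxLDL. The log2 fold-change was -0.63 (95% interval -0.94 to -0.32, standard error 0.14, q = 0.00312 from limma), a 1.55-fold fall that did not reach the 2-fold threshold. The log2 difference was -0.74, -0.35 and -0.80 in replicates 1, 2 and 3, and 46.4% of tested transcripts were lower in all 3. Since the tested transcripts, the brighter ones of the table, were lower with oxLDL by their median, the change of Fasn relative to that median was -0.53, and relative to the median of each replicate it was -0.68, -0.33 and -0.56. Of the tested transcripts, 2855 fell by more, so that Fasn stood at the 6.99th percentile of the changes. Its direction and its q-value below 0.05 held under each alternative scaling and with each single array left out, and with both arrays of replicate 3 left out q was 0.0535 (log2 fold-change -0.55).

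Srebf1 encodes SREBP-1 itself. Its log2 value in replicates 1, 2 and 3 was 9.55, 9.64 and 9.78 with vehicle, against 9.54, 9.88 and 9.59 with oxLDL. The groups overlapped, and the oxLDL array was above its vehicle array in replicate 2 and below it in replicates 1 and 3. The differences were -0.014, 0.23 and -0.19.

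The group means of Srebf1 were 9.66 ± 0.11 (SD, n = 3) and 9.67 ± 0.18 (SD, n = 3), and the log2 fold-change was 0.0088 (95% interval -0.24 to 0.26, standard error 0.11, q = 0.370 from limma). The interval did not reach a 2-fold change in either direction. Relative to the median of the tested transcripts the change was 0.11, and after quantile normalization of the deposited values it was 0.15 (q = 0.0871). Its sign was not stable, and with each array left out in turn it ran from -0.096 to 0.073.

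**Figure D2:**
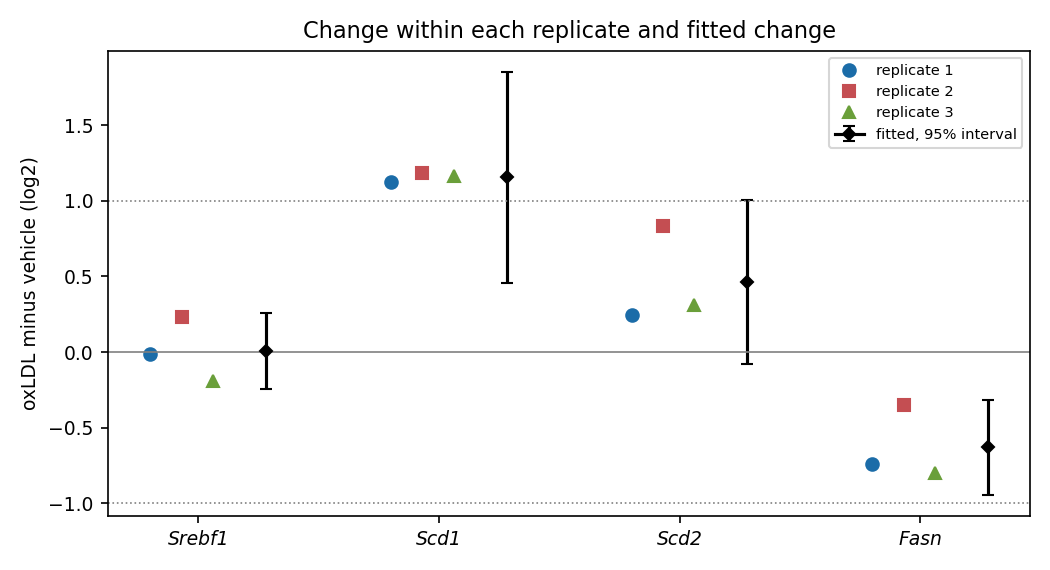
Oxidized LDL minus vehicle (log2, y axis) for each transcript, as the difference within replicates 1, 2 and 3 (colored markers) and as the fitted change with its 95% interval (black). Dotted lines mark a 2-fold change. The 3 markers of Scd1 lie above the upper line, those of Fasn between 0 and the lower line, and those of Srebf1 on both sides of 0.

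The transcripts were then compared with each other by the difference of their changes, computed on each array so that any shift shared by an array drops out. For the 6 pairs of members the exact permutation test exchanged arrays without regard to the replicate number, so with 3 arrays against 3 it cannot go below p = 0.10, two-sided, and 5 of the 6 pairs reached that value (0.12 after Benjamini-Hochberg adjustment over the 6). For Srebf1 against Scd2 it gave p = 0.30 (exact). The change of Srebf1 was the lower in 3 of 3 replicates, and minus that of Scd2 it was -0.46 ± 0.18 (SD of 3 replicates), with -0.26, -0.60 and -0.51 in replicates 1, 2 and 3. The share of other pairs of transcripts that reach p = 0.10 (exact), or keep 1 direction in 3 of 3 replicates, was not computed. Of single tested transcripts, 20.3% were higher and 46.4% lower with oxLDL in all 3. With swaps within the replicates only, the exact permutation test gave p = 0.25 for each of the 6 pairs, the smallest that 3 pairs allow, so no pair of members could pass 0.05 by either test.

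Scd1 and Fasn differed most. The change of Scd1 exceeded that of Fasn by 1.79 ± 0.23 (log2, SD of 3 replicates), or 3.45-fold, with differences of 1.87, 1.53 and 1.96. The change of Scd2 exceeded that of Fasn by 1.10 ± 0.10, with 0.99, 1.18 and 1.11. Between the desaturases, the change of Scd1 exceeded that of Scd2 by 0.69 ± 0.30, with 0.87, 0.35 and 0.85, so that they were closest in replicate 2. The change of Srebf1 was lower than that of Scd1 by 1.15 (-1.15 ± 0.20) and higher than that of Fasn by 0.64 ± 0.08, with 0.73, 0.58 and 0.61 for the latter. The ratios of Srebf1 to Fasn and of Scd2 to Fasn thus changed by similar amounts in the 3 replicates. Such closeness is not unusual, since single tested transcripts had a median SD of 0.090 relative to the median of each replicate. The share of other pairs of transcripts this close was not computed.

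**Figure D3:**
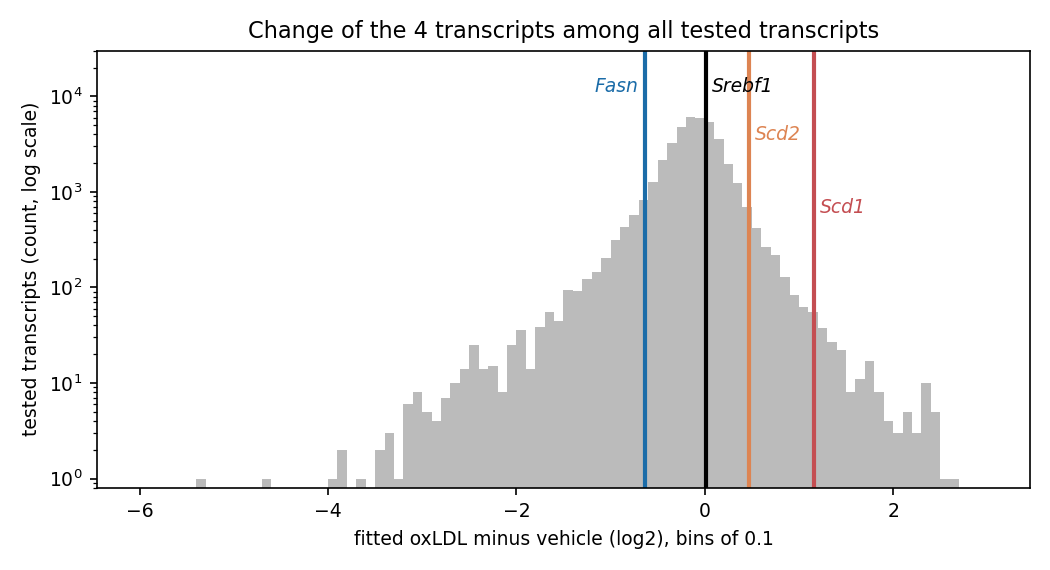
Number of tested transcripts (y axis, log scale) by fitted oxLDL minus vehicle change (x axis, log2, bins of 0.1), with the 4 transcripts as vertical lines. Scd1 lies in the thin upper tail, Scd2 above most transcripts, Srebf1 near the center and Fasn in the lower flank, among transcripts that run from -5.38 to 2.67.

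To see which other transcripts had the same pattern, Pearson's r over the 6 arrays was taken as the measure of likeness, with members and transcripts within 0.1 of the member on every array left aside. For Scd1, ENSMUST00000130723_at was the most alike (r = 0.997), with 10.80, 10.95 and 10.71 on the vehicle arrays and 11.02, 11.16 and 10.96 on the oxLDL arrays. Its range over the 6 arrays was 0.46, against 2.31 for Scd1. For Scd2 the most alike was ENSMUST00000103147_at (r = 0.998), with a range of 0.73 against 1.32, and for Fasn it was ENSMUST00000168709_at (r = 0.999), with a range of 0.30 against 0.94. These 2 transcripts did not pass the q-value themselves (q = 0.0860 and 0.0529 from limma). An r picked as the highest among 40841 over 6 arrays is high by selection, and whether it exceeds chance was not tested. The highest r for Srebf1 was 0.992. For Fasn, Scd1 and Scd2 40841 transcripts were compared, and for Srebf1 40829, of which 56 had r above 0.99 with Fasn, 15 with Scd1, 6 with Scd2 and 3 with Srebf1, and the 6 arrays share replicates and treatment. These identifiers were not paired with genes here. Apart from these, 12 of the 81690 transcripts lay within 0.1 of Srebf1 on every array, and 0 did so for Scd1, Scd2 or Fasn.

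**Figure D4:**
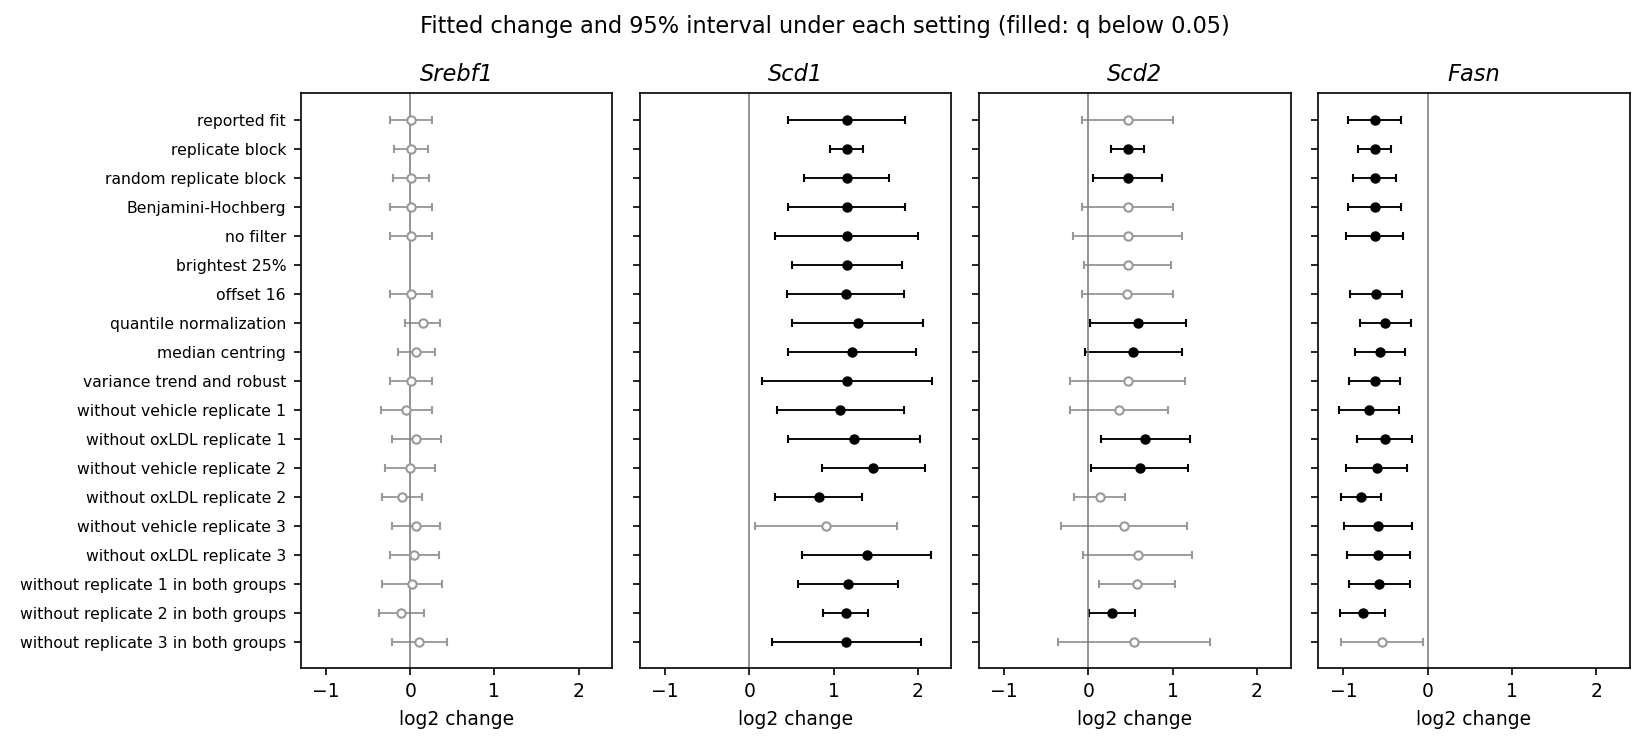
Fitted log2 change (x axis) with its 95% interval for the reported fit and each alternative setting (y axis), filled in black where q was below 0.05 and open where it was not. Scd1 and Fasn keep their direction throughout, the interval of Scd2 moves across 0 and that of Srebf1 stays around it. Srebf1 and Fasn were not among the brightest 25% of transcripts and have no point there.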

How the data were processed

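The 6 samples, 3 oxLDL and 3 vehicle, were each measured on 1 Affymetrix exon array. The authors quantile-normalized the probe measurements without background adjustment, summarized them with PLIER over CustomCDF probe sets of Ensembl transcripts, and deposited log2 values per transcript. The log base was taken from the range of the values, and any offset before the logarithm is not given in the sources used here. Their detection calls were not used here, so that signal over background was not assessed. All 6 array columns were used (0 columns of other samples).

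Differential expression was tested with limma 3.58.1 in R 4.3.3 (empirical Bayes, prior proportion 0.1, no covariate, two-sided) on transcripts with a mean above 8.74, and p-values were converted to q-values by Storey's method, coded in R. Thresholds were a q-value of 0.05 and a fold-change of 2, after the methods of the study. The code was tested on simulated data. Differences between members used an exact permutation test in scipy 1.17.1, and figures were drawn with matplotlib 3.10.9.

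The numbers pair the arrays, since the methods divide 1 pool of cells between the wells of an experiment. Deviations from the group means correlated at 0.51, 0.67 and 0.58 for the same number and between -0.53 and -0.04 for different numbers. Deviations from a mean of 3 arrays sum to 0, so positive values for the same number force negative values elsewhere. The contrast is therefore partly arithmetic, and the pairing rests on the methods. Precision is limited by 3 arrays per group.

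The transcripts, the motifs and the tests were chosen with earlier results of these data known. The named transcripts are the 4 members and, for Scd1, Scd2 and Fasn, the one most alike, while for Srebf1 only the r is given. Lists of other fatty acid synthesis genes and of cell type markers were not analysed here, since 0 identifiers were paired with genes. The alternatives were the replicate block, fixed or random, Benjamini-Hochberg adjustment, no filter, the brightest 25%, an offset of 16, quantile normalization, median centring, a variance trend with robust estimation, each array left out, and calls without the fold-change threshold. Both arrays of a replicate left out, swaps within pairs and the spread of differences under other scalings were chosen after the data were seen.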

Additional observations from a re-analysis of the deposited data

How the results depend on the processing

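The rise of Scd1 kept its direction under every setting tried and its q-value below 0.05 in all but 1, that without vehicle replicate 3, as given above. The number of members called higher, 1, became 0 without oxLDL replicate 2 and without vehicle replicate 3, so its range over single arrays left out was 0 to 1. With no fold-change threshold 1 member (Fasn) was lower, with or without quantile normalization or median centring, and 2 were higher with either of these scalings. At both thresholds the number called lower was 0 under each setting.

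Scd2 reached 2-fold under no setting, and its side of the q-value threshold depended on the processing. Its q-value was 0.0697 in the reported fit and below 0.05 after quantile normalization (log2 fold-change 0.59, q = 0.0379) and median centring (0.53, q = 0.04996), without oxLDL replicate 1 (0.67, q = 0.0338), without vehicle replicate 2 (0.61, q = 0.0443), without replicate 2 in both groups (0.28, q = 0.0427), and with the replicate block (0.47, with q = 0.0237 as a random effect). As a fixed effect, the block left limma with 2 residual degrees of freedom and 1 common SD of 0.124 for all transcripts, so its q-value for Scd2 (1.03e-05) takes no account of that transcript's own spread. The fit without replicate 2 in both groups also had 1 common SD. The block changed the side of the q-value threshold for no other member.

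Over the 6 fits that left out a single array, the log2 fold-change ran from 0.82 to 1.47 for Scd1, 0.14 to 0.67 for Scd2, -0.79 to -0.51 for Fasn and -0.096 to 0.073 for Srebf1. Srebf1 was below 0 without vehicle replicate 1 (-0.044), without oxLDL replicate 2 (-0.096) and without replicate 2 in both groups (-0.10). Fasn missed q below 0.05 without replicate 3 in both groups (-0.55, q = 0.0535). The difference in change ran from -1.47 to -0.84 for Srebf1 and Scd1, -0.61 to -0.23 for Srebf1 and Scd2, 0.58 to 0.70 for Srebf1 and Fasn, 0.49 to 0.86 for Scd1 and Scd2, 1.50 to 2.08 for Scd1 and Fasn, and 0.93 to 1.22 for Scd2 and Fasn.

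Over all tested transcripts, 280 were called higher and 1001 lower. After quantile normalization they were 383 and 748. With no fold-change threshold the numbers were 4369 and 12587 as deposited, 9979 and 8794 after quantile normalization, so that the excess of falls was reversed, and 7543 and 11175 after median centring, 2 combinations added after the data were seen. Among the brightest 25% the lower number was 642, where 20423 transcripts were tested. With 1 array left out at a time, the counts at both thresholds ran from 278 to 317 and from 906 to 1241.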

Other observations

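Each of the 4 transcripts had its most positive difference between oxLDL and vehicle in replicate 2, at 0.23 for Srebf1, 1.18 for Scd1, 0.84 for Scd2 and -0.35 for Fasn. Of all tested transcripts, 61.7% had theirs in that replicate, 32.0% in replicate 1 and 6.36% in replicate 3. Relative to the median difference of the tested transcripts in each replicate, the largest value of Scd1 was in replicate 3 (1.40, against 1.18 and 1.20 in replicates 1 and 2), and the other 3 kept theirs in replicate 2.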
